A study of Rattus norvegicus with 15 samples.

Results

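The liver response of rats to dietary genistein, a soy isoflavone that binds estrogen receptors and inhibits tyrosine kinases, was described across genes by setting 5 arrays titled genistein diet against 5 titled non-isoflavone diet, called control here. These are 10 of the 15 arrays of a study of isoflavones and hepatic lipid metabolism. The other 5, from rats fed daidzein, enter the shared estimate of spread and the values given beside genistein. They also enter the scale, the normalization, the filter on level and the choice of the brightest probe set, all taken over 15 arrays. All animals were male Sprague-Dawley rats, 4 weeks old at the start and housed individually, which had 5 days of adaptation and then 14 days of diet. The genistein diet carried 2 g/kg of genistein and the control diet none, on a shared base of casein, palm oil, corn starch and cellulose. Each array was hybridised with total liver RNA and is called a biological replicate in its title, so n is 5 per diet, a number that sets how precise any value below can be. The sample descriptions number 9 arrays of the series differently from the titles, and that of genistein 3 ends in "-re" without explanation; the title numbers are used.

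Rodent liver is a sexually dimorphic organ. The pituitary releases growth hormone in pulses in males and almost continuously in females, and the pattern sets the levels of many hepatic steroid-metabolising cytochromes P450, sulfotransferases, reductases and transporters, through STAT5B among other factors. Estrogenic compounds given to male rats are known to lower genes of the male pattern and raise genes of the female pattern. A second set of hepatic genes, for oxidation, glucuronidation, sulfation and export of foreign compounds, answers to the nuclear receptors CAR and PXR, while genes for cholesterol and fatty acid synthesis answer to SREBP proteins.

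Of 18625 probe sets tested, 60 (0.322%) differed between the diets at an adjusted p under 0.05 (limma, Benjamini-Hochberg over all tested probe sets), which is what "called" means below. With each gene taken at its brightest probe set, 17 of 10743 genes were called higher (0.158%) and 19 lower (0.177%) with genistein; 6 called probe sets that were higher and 5 that were lower had no single gene symbol. Levels and changes are in log2 units rebuilt from the deposited values, with an arbitrary zero. Calls were few, and some changes were large. The median change over all genes was -0.00 and the middle 50% spanned -0.11 to 0.11. Quantile normalization gave all arrays the same distribution of values, which holds such a median near 0. An absolute change over 1 was found in 92 genes (0.856%), of which 69 were not called. At an unadjusted p under 0.05 (limma) there were 1245 of the 10743 genes, so the small number of calls does not show that few genes differed. Of the 10743 genes, 5264 had a higher mean with genistein and 5478 a lower one. The count of calls depended on single animals: against 60 probe sets, 203 were called without genistein 4, 34 without genistein 1, 14 without genistein 2 and 17 without genistein 3. Without control 1, 2, 3 or 4 the counts were 10, 25, 12 and 21. A fit of the 10 arrays alone called 0 probe sets, with all adjusted p values (limma) just over the threshold or higher and 1896 probe sets at an unadjusted p under 0.05.

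Technical measures were compared first. The 3' minus 5' difference of the Gapdh control probe sets averaged 0.06 in controls and 0.01 with genistein (two-sided exact permutation p = 0.135), and that of Actb 1.06 and 1.06 (exact permutation p = 0.889). The component with the largest share, 22.4% of the variance over the 10 control and genistein arrays, separated the diets by 27.96 (exact permutation p = 0.0476, adjusted over 5 measures 0.139), with genistein 4 at -17.62 and the other genistein arrays at 10.07 to 37.68. Of 8 hepatocyte markers 7 were measured and passed the filter, and their level averaged 8.38 in controls and 8.40 with genistein. These 7 lie at the top of the level ranks (percentiles 99.66 to 99.997), where quantile normalization holds values nearly alike. The brightest read 9.29 in every array. Their agreement therefore cannot show an equal share of hepatocytes. Mean marker levels of Kupffer cells, stellate cells, endothelial cells and cholangiocytes overlapped between the diets; erythroid markers ran from 3.36 to 4.33 in controls and from 3.54 to 3.73 with genistein. Pancreatic enzyme genes such as Prss1 were high in daidzein 5 alone (7.59, against -1.53 to 0.47 in the genistein and control arrays). Cela1, of the same marker list, was highest in daidzein 5 (5.86) but present in all arrays. It read 2.81 to 3.33 in controls and 2.32 to 2.57 with genistein (log2 change -0.66, adjusted p = 0.679, limma). Without that array in the shared spread 42 probe sets were called, and 26 of the 36 called genes stayed called. RNA from whole tissue cannot tell fewer cells of a type from less RNA per cell, which applies to every gene below.

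Genes of the male-predominant list were 3 of the 4 called genes with the steepest falls: Dhrs7l1, Hsd3b5 and Ust5r. Dhrs7l1, of the short-chain dehydrogenase and reductase family, stood at 6.26, 5.88, 5.98, 6.21 and 6.03 in controls 1 to 5 and at 0.95, -0.61, -0.38, 4.51 and 2.21 in genistein 1 to 5. All genistein arrays lay below all control arrays, and genistein 4 came nearest, 1.37 below control 2. The gene was 26.7-fold lower (log2 change -4.74 ± 0.73 SE, adjusted p = 0.0159, limma). Hsd3b5, a 3-ketosteroid reductase of the male liver, read 6.16, 5.78, 6.33, 6.08 and 5.39 in controls and 0.90, 1.41, 0.34, 5.13 and 3.81 with genistein (12.3-fold lower, adjusted p = 0.0481, limma). Here genistein 4 came closest to the controls, just below control 5. Ust5r, an organic ion carrier, read 5.11, 4.61, 4.83, 5.01 and 4.60 against 1.15, 1.10, 1.62, 4.13 and 3.52 (5.78-fold lower, adjusted p = 0.0450, limma). The other gene was Slc22a8, the organic anion transporter OAT3, placed in the female-predominant list although its sex bias in rat liver is uncertain. It read 5.27, 5.10, 4.89, 5.33 and 5.31 against 1.56, 1.73, 1.82, 4.65 and 3.31 (5.93-fold lower, adjusted p = 0.0302, limma). In all 4 genes genistein 4 stood nearest to the controls, genistein 5 came next, and genistein 1, 2 and 3 lay far below. Ust5r and Slc22a8 lie on chromosome 1 with 1 protein-coding gene, Slc22a25, between them in the RefSeq gene order of GRCr8.

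Egfr, the epidermal growth factor receptor, which is more abundant in male than in female rodent liver, fell in a tighter way: 5.28, 5.51, 5.43, 5.47 and 5.77 in controls and 4.45, 4.33, 4.46, 5.00 and 4.22 with genistein (2.00-fold lower, SE of the log2 change 0.15, adjusted p = 0.0156, limma). Its other 2 probe sets, not called, had changes of -0.84 and, at a dim level, 0.20. Of 17 measured genes in the male-predominant list, 13 had a lower mean with genistein, 4 were called lower (0.177% of all genes) and 0 higher, and 7 had all genistein arrays below all controls (1.64% of all genes). The list's median change was -0.88, against -0.00 over all genes, and 8 members changed by over 1. The list was written with earlier results of these data known, so its direction is a description. Members that were not called included Obp3, a lipocalin of the alpha-2u-globulin family, with controls at 6.56 to 7.04 and genistein arrays at 2.77, 1.78, -0.94, 6.13 and 3.72 (log2 change -4.14 ± 0.88 SE, adjusted p = 0.0656, limma; its second probe set was called, at -4.18). They also included the steroid hydroxylases Cyp2c11 (-1.38), Cyp3a18 (-1.81), Cyp3a2 (-1.75) and Cyp2a2 (-0.70). Against the list, Akr1c14, the 3-alpha-hydroxysteroid dehydrogenase, had all genistein arrays above all controls (6.51 to 7.02 against 5.78 to 6.42, log2 change 0.63); that probe set was not called (adjusted p = 0.0729, limma), and 2 others of the gene were called higher, at 0.48 and 0.71. Igf1 (0.01) and Slco1a1 (0.02) had nearly equal means in both diets.

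Genes of the female liver pattern held most of the steepest rises. Sult2a6, a hydroxysteroid sulfotransferase, stood at 1.67, 2.87, 1.44, 0.99 and 3.23 in controls and at 6.17, 5.91, 6.21, 4.41 and 6.25 with genistein. Every genistein array exceeded every control, by 1.18 at the nearest pair, and genistein 4 was the lowest of its group. The change was 3.75 ± 0.47 SE on the log2 scale, or 13.5-fold (adjusted p = 0.00891, limma). Fmo5, a flavin monooxygenase, read 0.25, 2.58, 0.34, 2.23 and 2.23 in controls and 3.87, 4.32, 4.87, 3.85 and 4.55 with genistein (6.81-fold higher, adjusted p = 0.0198, limma). The controls of Fmo5 were the scattered group, with controls 1 and 3 well below the rest, and the genistein arrays lay within 1.02 of each other. Prlr, the prolactin receptor, read 0.39, 1.67, 1.82, 0.71 and 2.79 against 4.02, 4.48, 4.17, 3.27 and 3.81 (5.57-fold higher, adjusted p = 0.0340, limma), and its other 2 probe sets were called as well, at 3.22 and 3.38. Cyp2a1, a testosterone hydroxylase, read 4.01, 3.84, 3.83, 4.13 and 4.99 against 5.77, 5.90, 6.14, 5.44 and 5.67 (3.09-fold higher, adjusted p = 0.0102, limma). Control 5 was the highest control in Sult2a6, Prlr and Cyp2a1.

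Akr1b7, an aldo-keto reductase that answers to CAR and PXR, had the largest rise and, among called genes, the widest controls: -2.20, -1.13, 0.18, -0.88 and 2.83 against 5.18, 5.02, 5.81, 2.41 and 3.66 with genistein (25.2-fold higher, log2 change 4.65 ± 0.91 SE, adjusted p = 0.0455, limma). The groups overlapped, since control 5 exceeded genistein 4, and controls 1, 2 and 4 lay below the filter level of -0.30, where levels depend on the background that was subtracted. Aldh1a1, a retinal dehydrogenase, read 1.92, 3.46, 2.35, 2.43 and 2.91 against 4.24, 4.93, 4.75, 3.48 and 4.29 (3.30-fold higher, adjusted p = 0.0261, limma); genistein 4 stood 0.02 above control 2. In the female-predominant list 14 of 18 measured genes had a higher mean, 6 were called higher (0.158% of all genes) and 1 lower, and 5 had all genistein arrays above all controls (1.24% of all genes). The median change was 1.05 and 11 members changed by over 1. This list too was written with earlier results known. The member called lower was Slc22a8, described above, whose place in this list is uncertain. No female animal was measured, so the sex bias of single members rests on general knowledge. Among members not called were A1bg, a secreted glycoprotein (genistein arrays at 5.38, 3.73, 3.36, 0.37 and 1.54 against controls of -1.14 to 0.96, log2 change 2.77, adjusted p = 0.130, limma), and Cyp2c12, the steroid sulfate hydroxylase of female rats. Cyp2c12 read 7.33, 7.23, 7.92, 5.51 and 7.12 with genistein, so that 4 arrays exceeded the highest control of 6.75 and genistein 4 lay below the lowest of 6.11. Against the list, Hao2, a peroxisomal hydroxyacid oxidase, had a change of -0.93 (adjusted p = 0.115, limma).

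The promoters of the 4 sex-biased genes with the widest gap between the diets are shown because these genes separated the diets with no overlap and STAT5 is the factor best known for the sex pattern. Each runs from 250 bases before to 50 bases within the gene start of RefSeq (GRCr8), 5' to 3' on the gene's strand, with the palindromic STAT5-type motif TTCNNNGAA in capitals where it occurs. Dhrs7l1, chr6:97047850-97048149, minus strand, fell; Fmo5, chr2:187910714-187911013, plus strand, Sult2a6, chr1:84097759-84098058, minus strand, and Prlr, chr2:60909409-60909708, plus strand, rose.
Dhrs7l1: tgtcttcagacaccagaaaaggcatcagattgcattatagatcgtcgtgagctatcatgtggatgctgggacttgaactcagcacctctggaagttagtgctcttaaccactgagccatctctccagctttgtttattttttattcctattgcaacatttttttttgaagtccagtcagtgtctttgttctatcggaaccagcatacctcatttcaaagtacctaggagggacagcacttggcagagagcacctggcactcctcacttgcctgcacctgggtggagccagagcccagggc
Fmo5: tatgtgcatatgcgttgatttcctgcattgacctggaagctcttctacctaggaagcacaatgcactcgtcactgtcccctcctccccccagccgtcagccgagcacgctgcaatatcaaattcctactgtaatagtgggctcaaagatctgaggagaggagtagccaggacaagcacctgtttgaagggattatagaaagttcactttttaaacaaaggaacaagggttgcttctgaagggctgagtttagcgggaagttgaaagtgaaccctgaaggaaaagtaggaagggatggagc
Sult2a6: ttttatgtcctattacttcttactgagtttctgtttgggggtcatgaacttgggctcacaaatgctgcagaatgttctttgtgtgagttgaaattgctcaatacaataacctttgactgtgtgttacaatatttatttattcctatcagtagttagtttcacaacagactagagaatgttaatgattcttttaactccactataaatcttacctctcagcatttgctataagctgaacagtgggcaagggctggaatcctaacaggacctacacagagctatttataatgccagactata
Prlr: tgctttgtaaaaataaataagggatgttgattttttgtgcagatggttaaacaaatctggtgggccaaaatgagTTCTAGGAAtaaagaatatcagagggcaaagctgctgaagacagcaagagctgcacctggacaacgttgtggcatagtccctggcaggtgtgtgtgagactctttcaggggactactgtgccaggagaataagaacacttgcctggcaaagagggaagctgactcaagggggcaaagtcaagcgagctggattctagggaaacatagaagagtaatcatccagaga
The motif stood once in the Prlr sequence, as TTCTAGGAA starting 176 bases before the gene start, and not in the other 3 windows or at the other start of Prlr in the table. Of the 33469 promoters listed, 8.87% held it. Among list genes with a promoter in the table, it was found in 0 of 15 male-predominant and 2 of 17 female-predominant genes, Prlr and A1bg. These list counts are per gene, with a match at any of its promoters, so they are not in the same unit as the share of promoters. A match describes letters in this window and not binding.

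**Figure D1:**
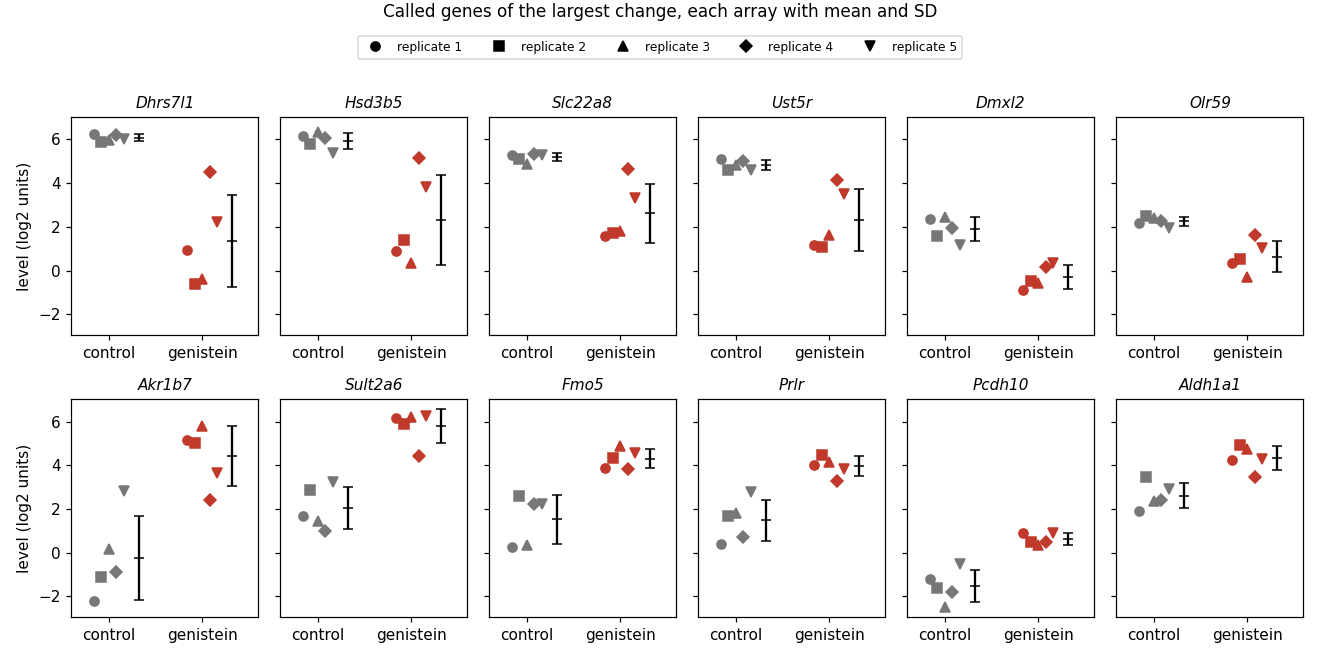
Level (log2 units) of the 6 called genes with the largest falls (top) and rises (bottom) in each control (grey) and genistein (red) array, with the marker shape giving the replicate number and black bars the mean and SD of 5 arrays. In Dhrs7l1, Hsd3b5, Slc22a8 and Ust5r the genistein arrays are spread, with genistein 4 (diamond) highest, whereas in Sult2a6 and Fmo5 the controls are the wider group.

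A cytochrome P450 and a pair of glucuronosyltransferases were called higher with smaller steps. Cyp2c6v1, an abundant cytochrome P450, read 7.17, 7.16, 7.07, 7.40 and 7.37 in controls and 7.76, 7.77, 7.77, 7.69 and 7.76 with genistein (1.43-fold higher, log2 change 0.52 ± 0.08 SE, adjusted p = 0.0180, limma). The genistein arrays spanned 0.08 in all, the controls 0.32. Ugt2b10 and Ugt2b34l1, glucuronosyltransferases of steroids and phenols that are direct neighbours among protein-coding genes on chromosome 14 of GRCr8, were both called: Ugt2b10 read 4.18, 4.37, 3.92, 4.42 and 4.29 against 5.00, 4.80, 5.20, 4.90 and 4.98 (1.67-fold higher, adjusted p = 0.0102, limma). Ugt2b34l1 read -0.27, -0.05, 0.13, 0.37 and 0.50 against 1.44, 1.46, 1.99, 1.00 and 1.58 (2.56-fold higher, adjusted p = 0.0126, limma). Probe sets of the Ugt2b, Cyp2c, Sult2a and alpha-2u-globulin families may also bind transcripts of close paralogs, so the member that changed is uncertain. The gene listed as Ugt2b did not follow diet: it stood between 6.42 and 7.05 in 8 of the 10 arrays, but at -2.19 in control 4 and at 2.21 in genistein 4. Over all 10743 genes, 5264 had a higher mean and 0.158% were called higher. Of 9 genes in the glucuronidation list, 7 had a higher mean and 2 were called higher (median 0.34). Of 22 CAR and PXR targets, 17 had a higher mean, 4 were called higher and 0 lower (median 0.39); 3 of the 4, Cyp2a1, Aldh1a1 and Akr1b7, are also calls of the female-predominant list, and the other is Cyp2c6v1. Cyp3a2 and Cyp3a18, which are also in the male-predominant list, were the members with the lowest values there, and the receptors themselves, Nr1i2 (0.22) and Nr1i3 (0.39), were not called. The sulfotransferase list was split: Sult2a6 was called higher and 7 of 12 members had lower means, with a median of -0.24.

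Called transporters were lower. Slc22a8 and Ust5r were the 2 calls among 16 bile and anion transporters, both lower, while 12 members had higher means and the median was 0.27. Abcc2, the canalicular conjugate exporter, read 4.82, 4.38, 4.79, 4.22 and 4.75 against 5.03, 5.27, 5.20, 4.85 and 5.08, with all genistein arrays above all controls by at least 0.03, and was not called (log2 change 0.49, adjusted p = 0.142, limma). Slco1b2, an organic anion uptake carrier, had a change of 0.44 (adjusted p = 0.209, limma).

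Calls among other enzymes were few per list. Akr1d1, the steroid 5-beta-reductase of bile acid synthesis, read 4.77, 5.11, 5.16, 4.96 and 5.50 against 6.25, 5.94, 6.07, 5.80 and 6.44 (2.00-fold higher, adjusted p = 0.0159, limma). Its second probe set had a change of 0.88 and was not called. Akr1d1 was the only call among 16 bile acid synthesis genes, whose median was 0.07, and with Akr1b7 1 of 2 calls among 15 aldo-keto reductases (median 0.00). Csad, the decarboxylase that makes hypotaurine on the way to taurine, read 3.69, 3.97, 4.24, 3.94 and 4.27 against 2.74, 2.38, 2.54, 3.28 and 2.70 (2.45-fold lower, adjusted p = 0.0102, limma), the only call among 29 sulfur amino acid genes. In that list Sqor, the mitochondrial sulfide oxidase, had a change of 1.03 with all genistein arrays above all controls and no call (adjusted p = 0.138, limma). Adh5, the glutathione-dependent formaldehyde dehydrogenase, rose by 0.59, with Aldh1a1 1 of 2 calls among 26 aldehyde dehydrogenase and retinoid genes (median 0.05). Aspg, an asparaginase, rose by 0.49, while Hao1, the peroxisomal glycolate oxidase, fell by 0.37 on the log2 scale. Apon, apolipoprotein N, read 5.31, 5.58, 5.41, 5.31 and 5.35 against 4.57, 4.77, 4.66, 4.94 and 4.77 (1.57-fold lower, adjusted p = 0.00958, limma), the only call among 24 genes of lipoprotein handling (median -0.03).

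The remaining calls were signalling, membrane and structural genes. Dmxl2, which helps assemble the vesicular proton pump, read 2.34, 1.59, 2.44, 1.95 and 1.15 against -0.91, -0.50, -0.59, 0.16 and 0.35 (4.57-fold lower, adjusted p = 0.00891, limma). Olr59, an olfactory receptor gene, fell by 1.61 on the log2 scale, Nox4, an NADPH oxidase, by 1.47, Omd, an extracellular matrix proteoglycan, by 1.31, and Cd46, a complement regulator, by 1.23. Crym, the cytosolic thyroid hormone binder, fell by 1.12. Lrtm2, a leucine-rich repeat membrane protein, Zdhhc23, a palmitoyl transferase, Dtx4, a ubiquitin ligase, Chchd6, of the mitochondrial inner membrane complex, and Cgrrf1, a ubiquitin ligase, fell by 0.44 to 0.92. Higher were Pcdh10, a protocadherin (log2 change 2.16), Rgs3, a regulator of G protein signalling (1.49), Ppp2r1b, a phosphatase 2A scaffold subunit (1.46), Psmb10, an immunoproteasome subunit (0.57), and Cops4, of the COP9 signalosome (0.38). Omd and Nox4 were the calls among 27 stellate cell and matrix genes, whose median was -0.04. Pcdh10, Nox4, Cd46 and Dmxl2 had at least 3 arrays of 1 diet below the filter level, so their folds depend on the subtracted background: with 16 added to the rebuilt intensities their changes were 1.34, -1.09, -0.79 and -1.75, all still called. Mean levels lay below the filter in controls for Pcdh10 (-1.54) and with genistein for Nox4 (-0.41) and Cd46 (-1.01). Pcdh10, Nox4 and Cd46 were thus tested only because of the groups in which they were higher. The second probe set of Rgs3 had a change of -0.07 at a level near the filter. That of Dtx4 changed by -0.47, and the other probe sets of Cops4 by 0.17 and 0.18, none of them called.

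Lists of lipid metabolism, the subject of the study, held no call in cholesterol, fatty acid or triacylglycerol synthesis or in mitochondrial oxidation. Of 20 cholesterol synthesis genes 18 had a lower mean, 0 were called, and the median was -0.29. An unadjusted p under 0.05 was found in 7 of them. Over all 10743 genes, 5478 had a lower mean and 1245 had an unadjusted p under 0.05. Msmo1, a sterol methyl oxidase, read 4.66, 4.88, 5.13, 5.26 and 4.46 against 4.25, 4.16, 3.75, 4.42 and 3.75, with no overlap and no call (log2 change -0.81, adjusted p = 0.0905, limma). The list's median by array was -0.19, -0.04, -0.53, -0.10 and -0.50 in genistein 1 to 5, and the controls ran from -0.27 to 0.39, so that genistein 1, 2 and 4 lay inside the control range. Of 24 fatty acid synthesis genes 19 had a lower mean and 0 were called (median -0.15). Acly, ATP citrate lyase, stood at 6.64, 6.24, 4.54, 6.69 and 6.01 with genistein against 6.51 to 7.15, and Fasn, fatty acid synthase, at 6.04, 5.95, 3.78, 6.38 and 5.17 against 5.59 to 6.75: genistein 3 was the lowest array in both. Targets of PPAR alpha had a median of 0.08 (28 genes, 0 called), mitochondrial fatty acid oxidation 0.06 (21 genes, 0 called) and triacylglycerol synthesis 0.10 (20 genes, 0 called). In uptake and activation, Acsl4, a long-chain acyl-CoA synthetase, lay above all controls in every genistein array (5.09, 5.60, 5.81, 5.09 and 5.55 against 4.51 to 4.73) with a change of 0.81 and an adjusted p of 0.0501 (limma). Cd36, the fatty acid translocase and a gene of the female pattern, read 3.81, 3.60, 3.37, 1.54 and 3.86 against 1.10 to 1.90, with genistein 4 inside the control range (log2 change 1.58, adjusted p = 0.0851, limma).

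Other lists stayed close to the median of all genes. Ribosomal proteins had the narrowest spread, with a middle 50% 0.07 wide against 0.21 over all genes, and a median of 0.06 (17 genes, 0 called). The electron transport chain and ATP synthase had a median of -0.00 (29 genes, 0 called), endoplasmic reticulum chaperones -0.07 (25 genes, 0 called), cell cycle genes -0.14 (28 genes, 0 called), acute phase, complement and coagulation genes -0.03 (43 genes, 0 called) and the circadian clock 0.03 (16 genes, 0 called). A missed threshold does not show that these genes were equal in both diets. The middle 50% of changes was 2.03 wide in the female-predominant and 1.71 in the male-predominant list, 0.89 in the glucuronidation list and 0.75 among Cyp2 and Cyp3 genes, whose median of -0.04 joined 2 calls higher (Cyp2a1 and Cyp2c6v1) with Cyp2c11, Cyp3a2 and Cyp3a18 on the lower side.

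**Figure D2:**
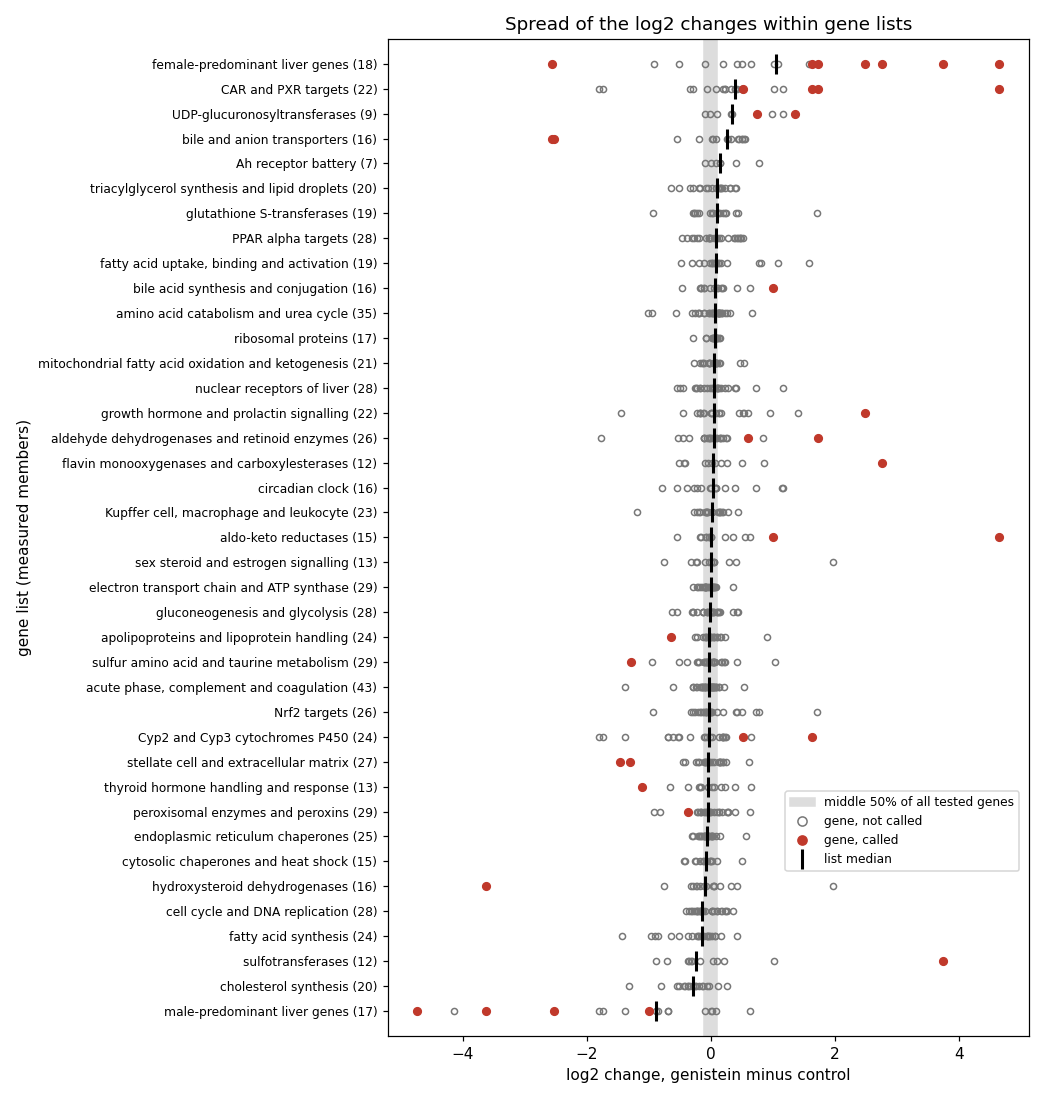
Log2 change (genistein minus control) of each measured gene in 39 lists, sorted by the list median (black bar), with called genes in red, other genes as open circles and the middle 50% of all tested genes as a grey band. The male-predominant (median -0.88) and female-predominant (median 1.05) lists lie at opposite ends, and the middle 50% of their changes (1.71 and 2.03 wide) is wider than in each of the other lists.

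The size of the response was uneven among the 5 animals. Counting genes over 1 log2 unit outside the range of 4 control arrays, genistein 1 to 5 had 78.2, 76, 111.6, 60 and 68.8 (means over the 5 ways of leaving out 1 control), while controls 1 to 5, each against the other 4, had 81, 44, 25, 37 and 33. Genistein 3 stood highest, and control 1 lay among the genistein arrays, so this count did not separate the diets. Over 2 log2 units the counts were 17.4, 19.6, 26, 2.8 and 6.6 with genistein and 8, 4, 4, 6 and 4 in controls: genistein 1, 2 and 3 exceeded all controls, genistein 5 lay inside the control range and genistein 4 below it. The daidzein arrays had 1.4 to 9.4, except for 19.6 in daidzein 5, the array in which pancreatic enzyme genes were high.

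Within the 36 called genes every genistein array lay on the same side of the control mean, and in 34 the groups did not overlap, the exceptions being Rgs3 and Akr1b7. These counts include Pcdh10, Nox4 and Cd46, which passed the filter through the groups in which they were higher. Over all genes, 133 (1.24%) had all genistein arrays above all controls and 176 (1.64%) below; 1108 (10.3%) and 1128 (10.5%) had all 5 above or below the control mean. Expressed as a percent of the mean change of each called gene, the median position was 109 in genistein 1, 117 in genistein 2, 114 in genistein 3, 66.3 in genistein 4 and 95.0 in genistein 5. Genistein 4 was the array nearest to the control mean in 27 of the 36 genes and reached less than 50% of the mean change in 8; genistein 5 was nearest in 5. The controls stood at -14.2 to 3.59 percent, except control 5 at 22.6, which was the control nearest to the genistein mean in 17 genes. Cops4 (4.14, 4.03, 4.10, 4.15 and 4.00 against 3.62 to 3.75) and Cyp2c6v1 were among the genes that moved alike in all 5 animals, genistein 4 included. For Cops4 this holds for the brightest probe set, with a change of 0.38, while its other probe sets changed by 0.17 and 0.18 and were not called. Genes called lower were more variable with genistein, with a median SD of 0.43 against 0.21 in controls and a higher SD in 16 of 19. Genes called higher showed the reverse, 0.26 against 0.47, with a higher SD under genistein in 7 of 17. Over all 10743 genes the medians were 0.19 and 0.17, with a higher SD under genistein in 5940. In both sets of calls the more variable diet was the one with the lower levels, and whether level accounts for the spread was not tested. The limma fit takes 1 spread for all diets, so adjusted p-values of genes with such unequal SDs are approximate. Of the 36 genes, 7 kept their call in all 10 fits that left out 1 array: Sult2a6, Cyp2a1, Ugt2b10, Ugt2b34l1, Csad, Apon and Dmxl2. Another 12, Hsd3b5, Prlr and Akr1b7 among them, kept it in at most 2.

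**Figure D3:**
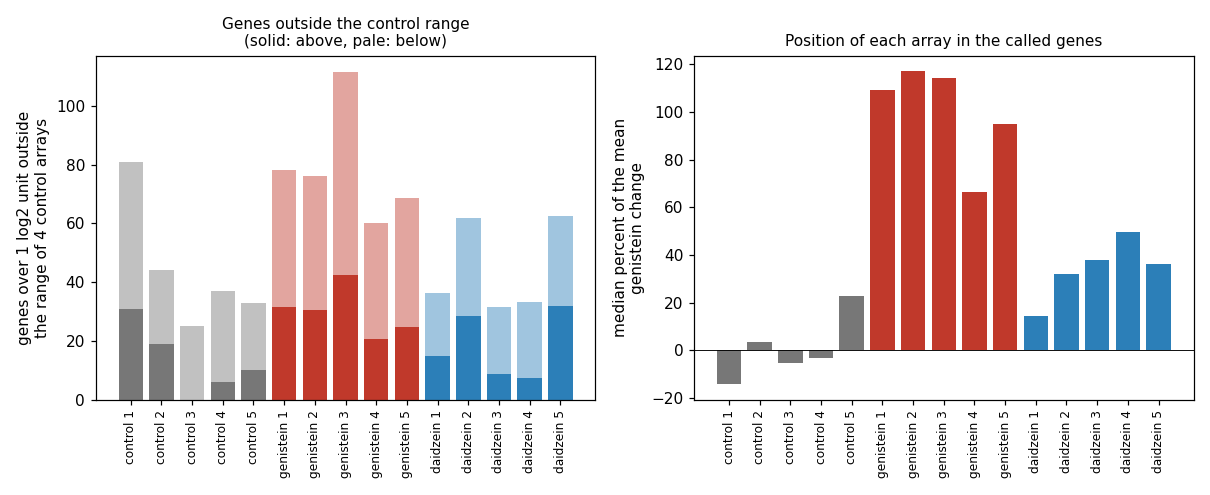
Left, number of genes over 1 log2 unit above (solid) or below (pale) the range of 4 control arrays in each array; right, median over the 36 called genes of each array's distance from the control mean as a percent of the mean genistein change. Genistein 3 has the highest count (111.6) and genistein 4 the smallest share of the mean change (66.3) among the genistein arrays.

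The sex-pattern lists had genistein 3 and genistein 4 at opposite ends. The median of the male-predominant list, array minus control mean, was -0.90, -0.93, -1.88, -0.27 and -0.37 in genistein 1 to 5, with controls between -0.05 and 0.13. That of the female-predominant list was 0.82, 1.44, 1.63, 0.15 and 1.09, with controls between -0.27 and 0.29, so that genistein 4 lay inside the control range. Without genistein 3 the median change of the male-predominant list was -0.52 in place of -0.88. CAR and PXR targets gave 0.15, 0.32, 0.57, 0.23 and 0.45, with controls from -0.14 to 0.18, and the glucuronidation list 0.76, 0.34, 0.58, 0.28 and 0.43, with controls from -0.21 to 0.17. In CAR and PXR targets genistein 1 was lowest and inside the control range, whereas in the glucuronidation list all genistein arrays lay above all controls. Ribosomal proteins (-0.05 to 0.09) and all tested genes (-0.02 to 0.02) showed no such separation.

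**Figure D4:**
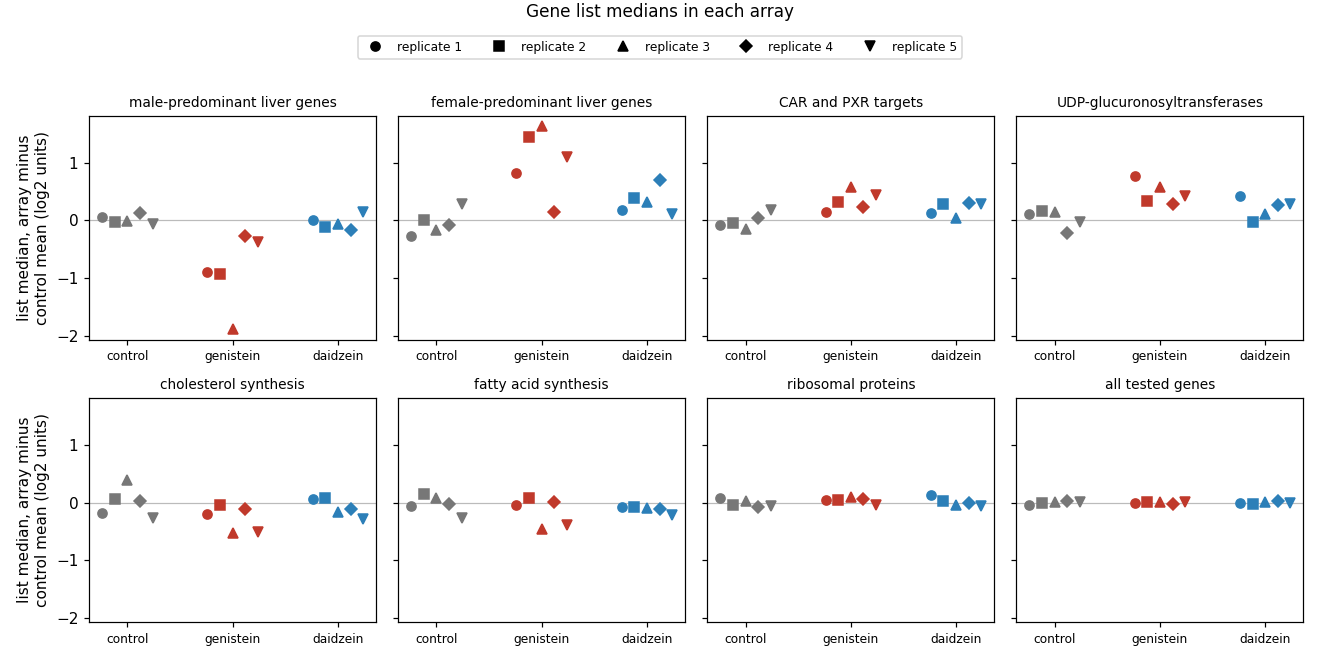
Median over list members of the array's level minus the control mean (log2 units; for a control array minus the mean of the other 4 controls) in control (grey), genistein (red) and daidzein (blue) arrays, with marker shapes for replicate numbers. In the male-predominant list genistein 3 is lowest (-1.88) and genistein 4 highest (-0.27), and in the female-predominant list genistein 4 (0.15) lies among the controls.

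Some genes lay far from the control range in part of the animals and near it in others. Among 8803 genes whose controls all lay above the filter level within 1 log2 unit of each other, 16 (0.182%) had at least 2 genistein arrays over 1 unit outside the control range on 1 side and at least 2 within 0.5 of it, 12 of them on the lower side. The same search found 4 genes (0.0454%) among the daidzein arrays, and 11 (0.127% of 8632 genes) when control and genistein arrays were exchanged. The arrays over 1 unit outside, called moved here, were mostly the same. Genistein 2 had moved in 14 of the 16, genistein 3 in 11 and genistein 1 in 10, but genistein 5 in 3 and genistein 4 in 1. In 7 genes exactly genistein 1, 2 and 3 had moved. Cyp2c11, the main male-specific cytochrome P450 of the rat, stood at 5.94, 6.05, 6.18, 7.82 and 7.51 with genistein against 7.92 to 8.15, and Cyp3a2, a testosterone 6-beta-hydroxylase, at 4.82, 4.36, 4.29, 6.73 and 6.78 against 6.94 to 7.30. Car3, carbonic anhydrase 3, read 5.23, 4.49, 5.96, 7.29 and 7.07 against 7.27 to 7.90, and Hao2 read 5.47, 5.25, 5.16, 6.63 and 6.23 against 6.52 to 6.80. These 4 abundant genes split at the same place, with genistein 4 and 5 near the controls. In Cyp2c11 and Cyp3a2, among others of the 16, every genistein array still lay below every control, so the difference among animals was graded. On the higher side Tmem30b, a phospholipid flippase subunit, read 2.53, 2.72, 2.38, 0.97 and 1.43 against 0.13 to 1.09, and Chmp4c, of the ESCRT-III complex, 1.78, 1.81, 2.31, 0.44 and 0.65 against -0.25 to 0.52.

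Other splits fell elsewhere. Nudt8, a mitochondrial nudix hydrolase, was low in genistein 4 and 5 (-0.77 and -0.86 against controls of 0.53 to 1.15) and not in the others. Sult1c3, a sulfotransferase, read 5.62, 5.57, 6.11, 6.16 and 6.55 against 6.63 to 6.78, a graded series below all controls, and Spink1l, a Kazal-type protease inhibitor, 4.52, 3.93, 2.97, 5.39 and 4.95 against 5.38 to 6.27. Of the 16 genes Zdhhc23 alone was called. A second search took all 10743 genes, with no limit on the range or level of the controls. It asked for at least 1 genistein array over 1 unit above the control range and at least 1 over 1 unit below it. It found 4 genes (Rhov, Adcyap1, Nppb and Slc34a2), against 0 in the daidzein and exchanged searches. Slc34a2, a sodium and phosphate cotransporter, read 3.32, 3.23, 3.18, 3.29 and 3.51 in controls and 4.71, 3.68, 2.06, 2.54 and 2.67 with genistein, so that the mean change of -0.18 hid a spread of 2.65. Rhov, Adcyap1 and Nppb lay near the filter level in controls (means of -0.03, -0.02 and 0.30).

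**Figure D5:**
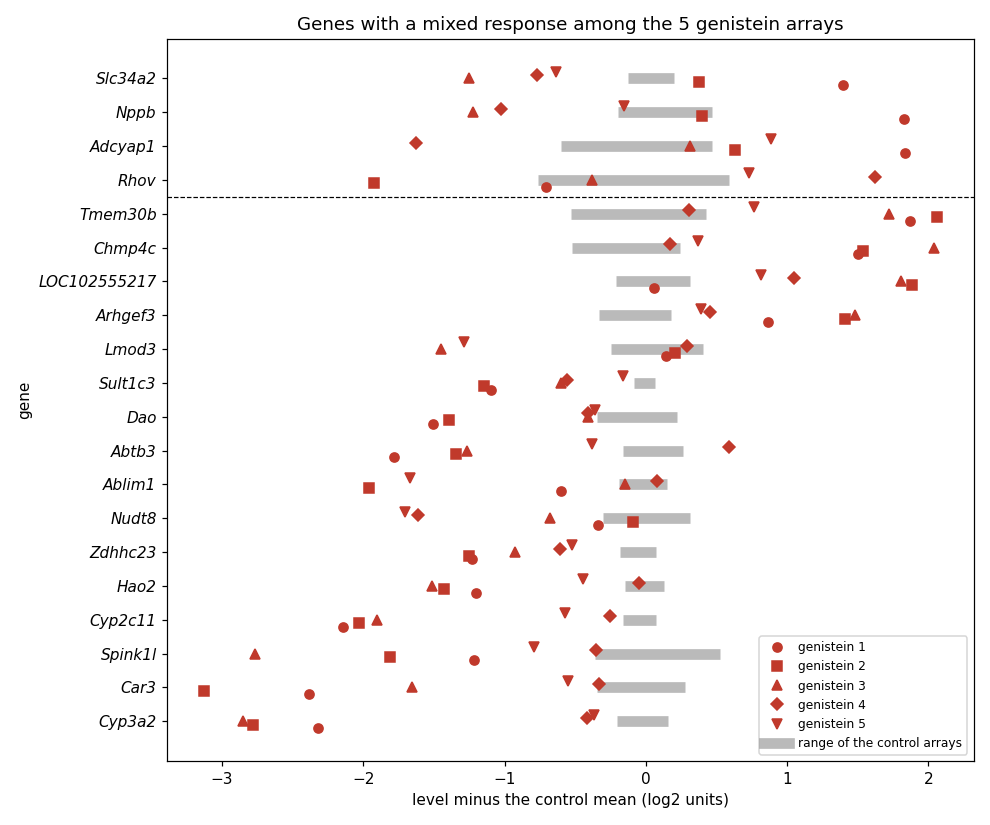
Level minus the control mean (log2 units) of each genistein array (red markers), with the range of the control arrays as a grey bar. Below the dashed line are the 16 genes with part of the arrays over 1 unit outside that range on 1 side. Above it are the 4 with arrays over 1 unit outside on both sides. Genistein 1, 2 and 3 (circle, square, triangle) lie apart from genistein 4 and 5 in Cyp3a2, Car3, Cyp2c11, Hao2, Abtb3, Chmp4c and Tmem30b.

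Some large changes were not called. The 7 uncalled genes with an absolute change over 2, named here after their values were seen, were Obp3, A1bg, Stac3 (-2.43), Poteml2 (-2.38), Serpinb9b (2.36), Trim24 (2.36) and Cdh17 (-2.12). The SD of their genistein arrays ran from 1.13 in Cdh17 to 2.59 in Obp3, against a median of 0.19 over all genes. In Poteml2 the genistein arrays read 0.98, 0.23, -1.26, 2.09 and 1.33 against 2.70 to 3.40, below all controls (adjusted p = 0.0630, limma). In 9 genes, Obp3 again among them, the brightest probe set missed the threshold and another was called: Akr1c14, Cyp2d4, Ldhd, Obp3, Pld1, Prcp, Sorl1, Sri and Tmem64. In Pld1, a phospholipase D, the 4 probe sets had changes of -0.48, -0.18, -0.64 and 0.42, which differ in sign.

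A direct contrast of genistein with daidzein, which is the test of whether the effects of the 2 diets differ, called 15 genes (0.14%). Among the genes described here these were Dhrs7l1 (genistein minus daidzein -4.61, adjusted p = 0.0252, limma), Slc22a8 (-2.60, 0.0398), Csad (-1.47, 0.00612), Apon (-0.87, 0.000347) and Poteml2 (-2.85, 0.0398). The daidzein changes against control in these genes were -0.13, 0.03, 0.18, 0.23 and 0.47, from the same control arrays. Fmo5, Aldh1a1, Pcdh10 and Dmxl2, chosen after their values were seen, had daidzein changes against those controls of 1.68, 1.35, 1.65 and -1.29, none of them called (limma, adjusted p from 0.209 to 0.346), and their direct contrasts with genistein were not called either.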

How the data were processed

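Total liver RNA of 15 rats was labelled in a 1-channel Affymetrix protocol, per the labels. The authors deposited 1 table of 31099 probe sets by 15 arrays, whose unit is a score: judging by the values alone, a log signal divided by 1 scale per array. The design had assumed log2 signal. The scale was rebuilt from gaps between repeated values (493 of 493 whole within 0.001 of a step), and all values were multiplied by the mean of 2.60 log2 units per deposited unit (arrays from 2.54 to 2.79). The background correction and summarisation are not given in the sources used here, so fold changes at low signal rest on steps not known here. Of the values, 260 were missing, none in a tested probe set.

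As array medians differed by 0.125, over the limit of 0.1, arrays were quantile normalized (R 4.3.3, limma 3.58.1). With 57 control probe sets removed, a filter at the 40th percentile of the mean over arrays kept 18625 for testing with lmFit and eBayes in 1 model of 3 diets, adjusted by Benjamini-Hochberg over all of them at 0.05. SD is over 5 arrays and SE is from the fit. Genes were named from the array annotation (1 symbol for 20826 probe sets, several for 436, none for 9780; 20821 matched to the RefSeq gene table), and the brightest tested probe set stood for a gene. Columns outside the sample map numbered 0.

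The comparison, the 39 gene lists and the rules were chosen with earlier results of these data known. The naming rule took called genes with a current symbol, up to 4 genes of lowest p per list, the 8 per direction with the widest gap between non-overlapping diets, 10 one-sided and 4 two-sided mixed genes of largest range, up to 2 members per list moving against its median, and set receptor and lipid genes. Outside it, named after their values were seen, are A1bg, Cdh17, Cela1, Cyp2a2, Cyp2c12, Igf1, Ldhd, Pld1, Prcp, Serpinb9b, Slco1a1, Sorl1, Sri, Stac3, Tmem64, Trim24 and Ugt2b, and in arrays that stand apart Prss1 and Mup5. On simulated normal data for genistein against control (18567 probe sets), the fit recovered 88 of 100 probe sets moved by 1 log2 unit and 87 of 100 moved by 2, with 3 false calls. The simulated noise was independent between probe sets and had 1 spread for all diets. The called genes had unequal SDs in the 2 diets, so these rates do not carry over to the real arrays. Title numbers were not treated as pairs: in residuals, 1 of 15 same-number pairs correlated above 0.1 (r from -0.163 to 0.109). Pairs of unlike number were not set beside them, so whether the arrays were paired is not settled. Alternatives are given in the closing section; 1, a fit without daidzein 5, was added after seeing the data.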

Additional observations from a re-analysis of the deposited data

Results flagged for a closer look

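Of 240 groups of 5 arrays (81 genes and 39 list medians, each in control and genistein arrays), 18 held 1 array far from the other 4, against about 1 in 20 by chance. Some of these genes were named for a wide spread or for an array apart, and lists share members. The count therefore cannot be weighed against that rate. The number given is the gap to the nearest array as a share of the group's range, with a limit of 0.71. Genistein 4 was the low array in Cd36 (0.787), Cyp2c6v1 (0.869), Psmb10 (0.871), Serpinb9b (0.824), Sult2a6 (0.814) and Ugt2b (0.935), and in the median of the electron transport list (0.758). In Sult2a6 it stood at 4.41 against 5.91 to 6.25, in Psmb10 at 3.10 against 3.57 to 3.64, and in Serpinb9b at -0.59 against 3.62 to 4.53. In Cyp2c6v1 the distance was small, 7.69 against 7.76 to 7.77. Genistein 3 was low in Cgrrf1 (0.737) and high in Nr1i2 (0.874), and genistein 5 was high in the median of the Ah receptor list (0.737) and low in that of ribosomal proteins (0.714). Among controls, control 5 was high in Cyp2a1 (0.745), control 4 low in Tmem64 (0.755), Ugt2b (0.936), Zdhhc23 (0.750) and the cytosolic chaperone median (0.748), control 3 low in Cd46 (0.761) and control 1 low in the sulfur amino acid median (0.849).

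The effect of genistein differed from that of daidzein, by the direct contrast (limma), in 5 of the genes described. Genistein minus daidzein was -0.87 in Apon, -1.47 in Csad, -4.61 in Dhrs7l1, -2.85 in Poteml2 and -2.60 in Slc22a8.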

How the results depend on the processing

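Against 60 probe sets called for genistein against control, the counts were 34 with median centring, 14 without a filter, 124 with the filter at the 60th percentile, 17 with a replicate block on the title numbers, 140 with limma array weights and 0 in a fit of the 10 arrays alone (limma; 1896 at an unadjusted p under 0.05). Leaving out 1 array gave 10 (without control 1) to 203 (without genistein 4). Of the 36 called genes, 28 stayed called without quantile normalization (51 probe sets, 20 higher and 31 lower), 11 with the replicate block and 36 with array weights, and 0 changed sign under any alternative. For genistein against daidzein, 21 probe sets became 9 with median centring, 3 without a filter, 67 with the stricter filter, 35 with 16 added to the intensities, 2 with the replicate block, 2 in a fit of the 2 groups alone and 74 with array weights, and 3 to 136 without 1 array. The cause of these changes was not tested. For consistency over arrays, the mean number of genes per genistein array beyond the control range by 1 log2 unit, 78.9, was 370 at a distance of 0.5 and 14.5 at 2. The 16 genes with a mixed response became 3 at 1.5 units; without quantile normalization there were 18, 14 of them shared. The medians of the male-predominant (-1.16 to -0.52), female-predominant (0.82 to 1.32), CAR and PXR (0.26 to 0.47), glucuronidation (0.28 to 0.40) and cholesterol synthesis lists (-0.36 to -0.21) kept their sign under all 19 alternatives, whereas that of the Kupffer cell list changed sign in 10.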

Other observations

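Among the 17 genes in which a gap of over 3 log2 units divided the 15 arrays, 1 had control and genistein arrays on both sides of the gap: Ugt2b, a glucuronosyltransferase gene. Its brightest probe set stood between 6.42 and 7.05 in 11 arrays and at -2.19 in control 4, 2.21 in genistein 4, 0.71 in daidzein 2 and 1.21 in daidzein 4. Its second probe set was lowest in the same 4 arrays, at -0.68 to -0.22, against 1.80 to 3.75 in the others. This gene was chosen after its values were seen. Genistein 4, whose called genes lay nearest to the control mean, is 1 of these 4 arrays; whether the low Ugt2b level has a part in that was not tested. In genistein 3 alone, Mup5, a major urinary protein gene, stood at 1.13 against 5.31 to 6.14 in the other genistein arrays.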
